A study of Homo sapiens with 6 samples.

Results

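Beyond MDM2, several p53-regulated or p53-binding proteins restrain p53 or act in its feedback, and 6 of their genes are described here: PPM1D, CCNG1, CCNG2, RCHY1, ZMAT3 and PPP2R5C. They were taken by name, as all probe sets whose single gene symbol in the platform annotation was one of these 6, and 0 older aliases of them were met. The 6 genes had 127 probe sets of 1411399 in the table, and all 6 were among the 17841 genes that could be tested. RNA came from HCT116, an established human colorectal carcinoma line whose titles read HCT116 +/+, hybridized to exon arrays (Affymetrix Human Exon 1.0 ST), on which each gene is read by several probe sets spread along its exons.

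The 6 arrays formed 3 groups of 2, all collected after 12 h: control cells, cells given Nutlin-3 and cells given 5-fluorouracil (5FU). Nutlin-3 occupies the p53-binding pocket of MDM2 and so frees p53 from it. 5FU is a pyrimidine analogue that disturbs RNA and thymidylate metabolism. The control treatment is named none in the sample labels and DMSO in the design text, the drug is written both Nutlin 3R and Nutlin-3, and no dose was found in the labels. Whether the replicates came from separate cultures is not stated either, so p-values measure only the spread between these arrays, which may be technical.

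Feedback on p53 works through several routes. PPM1D, also called WIP1, is a serine/threonine phosphatase that p53 induces and that removes activating phosphates from p53 and from the kinases that signal DNA damage. Cyclin G1, the product of CCNG1, binds the B' subunits of protein phosphatase 2A (PP2A) and directs the phosphatase to MDM2, which activates MDM2. PPP2R5C encodes one of these subunits, B56 gamma, which also brings PP2A to p53 itself. RCHY1 encodes PIRH2, a RING ubiquitin ligase for p53. ZMAT3, also called WIG1, is a zinc-finger protein that binds RNA and alters the stability and splicing of transcripts, and CCNG2 encodes cyclin G2, the close relative of cyclin G1 that FOXO factors induce in resting cells.

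Values are deposited log2 expression values averaged over the probe sets of a gene that lay above 4.73, the median of all probe-set means. These are 16 of 17 probe sets for PPM1D, 19 of 21 for CCNG1, 15 of 22 for CCNG2, 16 of 18 for RCHY1, 14 of 14 for ZMAT3 and 30 of 35 for PPP2R5C. A gene was called when its Benjamini-Hochberg adjusted p over all tested genes in limma was below 0.05. Levels of different genes cannot be compared on this scale, because their probes differ.

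The promoters are shown first for PPM1D, CCNG1, CCNG2 and ZMAT3, the genes whose arrays after either drug all lay above both control arrays. Each is the 250 bases before the most upstream start site in the RefSeq promoter table of GRCh38.p14, on the coding strand: chr17:60599943-60600192 (plus strand) for PPM1D, chr5:163437321-163437570 (plus strand) for CCNG1, chr4:77156957-77157206 (plus strand) for CCNG2 and chr3:179071810-179072059 (minus strand) for ZMAT3. Capitals mark every match, on either strand, to the cyclic AMP response element TGACGTCA, the E-box CACGTG, the forkhead motif GTAAACA, the CCAAT box or the p53 half-site consensus.
PPM1D: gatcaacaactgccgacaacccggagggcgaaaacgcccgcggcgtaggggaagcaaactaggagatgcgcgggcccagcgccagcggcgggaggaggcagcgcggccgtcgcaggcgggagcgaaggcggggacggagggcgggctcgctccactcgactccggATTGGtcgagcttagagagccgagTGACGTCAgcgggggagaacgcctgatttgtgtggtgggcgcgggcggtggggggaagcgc
CCNG1: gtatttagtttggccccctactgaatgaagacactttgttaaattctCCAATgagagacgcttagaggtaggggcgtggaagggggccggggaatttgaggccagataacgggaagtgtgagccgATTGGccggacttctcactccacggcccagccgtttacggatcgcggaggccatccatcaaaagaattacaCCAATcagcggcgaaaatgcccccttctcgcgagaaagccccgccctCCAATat
CCNG2: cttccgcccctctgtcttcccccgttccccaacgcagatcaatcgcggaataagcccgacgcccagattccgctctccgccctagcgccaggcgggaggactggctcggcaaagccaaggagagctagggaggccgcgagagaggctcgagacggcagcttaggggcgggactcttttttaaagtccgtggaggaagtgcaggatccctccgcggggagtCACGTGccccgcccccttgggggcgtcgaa
ZMAT3: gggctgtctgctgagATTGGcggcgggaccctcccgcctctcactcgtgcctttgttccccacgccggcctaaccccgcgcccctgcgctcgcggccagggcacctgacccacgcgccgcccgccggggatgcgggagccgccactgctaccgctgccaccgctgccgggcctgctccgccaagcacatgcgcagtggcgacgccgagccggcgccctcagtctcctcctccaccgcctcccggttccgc
The PPM1D window held TGACGTCA, starting 61 bases before the start site, a motif present in 1.75% of 27305 promoters of the same length. CACGTG stood 30 bases before the start site of CCNG2 and was present in 6.46% of promoters. The CCNG1 window held 4 CCAAT boxes, and PPM1D and ZMAT3 held 1 each, where 33% of promoters held at least 1. None of the 6 genes had a match to GTAAACA (3.01% of promoters) or to the p53 half-site consensus (5.5% of promoters) in this window. RCHY1 had no match to any of the 5 motifs, and PPP2R5C had 1 CCAAT box. No 2 motifs overlapped in the printed windows. A match is a description of the letters and not a measured binding site.

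After Nutlin-3, ZMAT3 rose, and after 5FU, PPM1D rose; these were the calls among the 6 genes. For PPM1D, CCNG1, CCNG2 and ZMAT3, both arrays of either drug lay above both control arrays. RCHY1 overlapped control after either drug, and PPP2R5C lay slightly below control after Nutlin-3 and overlapped it after 5FU. For Nutlin-3 against control 1 of 6 was called, beside 1.22% of all genes (0.359% higher, 0.858% lower), and for 5FU against control 1 of 6, beside 0.448% (0.331% higher, 0.118% lower). Groups did not overlap with the drug higher for 4 of 6 genes after Nutlin-3, beside 16.2% of all genes, and for 4 of 6 after 5FU, beside 20% of all genes. In either direction 5 and 4 of the 6 did not overlap, beside 34.2% and 38% of all genes. An unadjusted p below 0.05 was reached by 4 and 3 of the 6, beside 10.2% and 10.7% of all genes. The 6 genes had a median log2 difference of 0.76 after Nutlin-3 and 0.63 after 5FU, where all genes had medians of 0.0006 and 0.0014. The 2 comparisons share the control arrays, so their values stand side by side and are not independent.

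**Figure D1:**
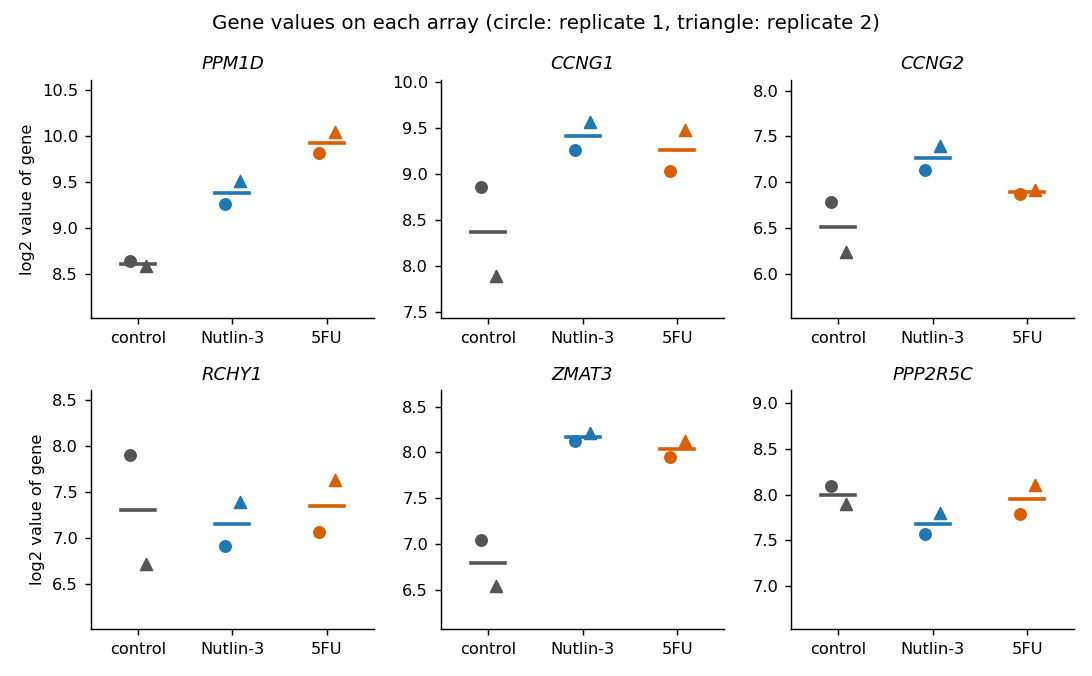
Log2 value of each gene (y axis, the same span in every panel) on the 6 arrays by group (x axis); circles are replicate 1, triangles replicate 2 and bars group means. PPM1D, CCNG1, CCNG2 and ZMAT3 have all drug arrays above both control arrays, while RCHY1 varies more within control, from 6.71 to 7.90, than between groups.

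PPM1D is the phosphatase arm of this feedback. Its log2 values were 8.64 and 8.59 in control replicates 1 and 2, 9.27 and 9.51 after Nutlin-3, and 9.82 and 10.04 after 5FU. The 3 groups did not overlap, with control lowest and 5FU highest. It rose 2.49-fold after 5FU, a log2 difference of 1.32 (SE 0.15, 95% interval 0.96 to 1.68, limma adjusted p = 0.0283), from 8.61 ± 0.03 to 9.93 ± 0.16 (SD, n = 2). The Nutlin-3 mean was 9.39 ± 0.17 (SD, n = 2), a log2 difference of 0.77 (0.41 to 1.13) that did not pass (limma adjusted p = 0.0797). Set against each other, Nutlin-3 was 0.54 below 5FU (95% interval -0.90 to -0.18), which did not pass either (limma adjusted p = 0.2, unadjusted p = 0.00907). By rank of the log2 difference, PPM1D was gene 45 of 17841 from the top after 5FU and gene 119 after Nutlin-3.

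ZMAT3, the RNA-binding member, had the largest difference of the 6 after Nutlin-3. Values were 7.04 and 6.54 in control, 8.12 and 8.21 after Nutlin-3, and 7.95 and 8.12 after 5FU. Both drug groups lay about a unit or more above control and overlapped each other. The rise after Nutlin-3 was 1.38 on the log2 scale (SE 0.19, 95% interval 0.93 to 1.82, limma adjusted p = 0.0246), from 6.79 ± 0.36 to 8.17 ± 0.07 (SD, n = 2). After 5FU the mean was 8.04 ± 0.12 (SD, n = 2) and the difference 1.25 (0.80 to 1.69), just outside the threshold (limma adjusted p = 0.0595). The drugs differed by 0.13 (Nutlin-3 minus 5FU, 95% interval -0.32 to 0.58, limma adjusted p = 0.807), so a call after one drug and not after the other does not show that ZMAT3 responded differently to them. ZMAT3 was gene 21 of 17841 by rank after Nutlin-3 and gene 58 after 5FU.

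Both calls depended on having every array of the 2 groups compared. The call of ZMAT3 was lost in each of the 4 fits without a control or Nutlin-3 array (adjusted p 0.0553 to 0.0985, difference 1.13 to 1.63) and that of PPM1D in each of the 4 without a control or 5FU array (adjusted p 0.116 to 0.247, difference 1.20 to 1.43). With arrays centred on their medians the adjusted p was 0.0527 for ZMAT3 and 0.058 for PPM1D, and the median of probe sets in place of the mean gave ZMAT3 an adjusted p of 0.167.

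**Figure D2:**
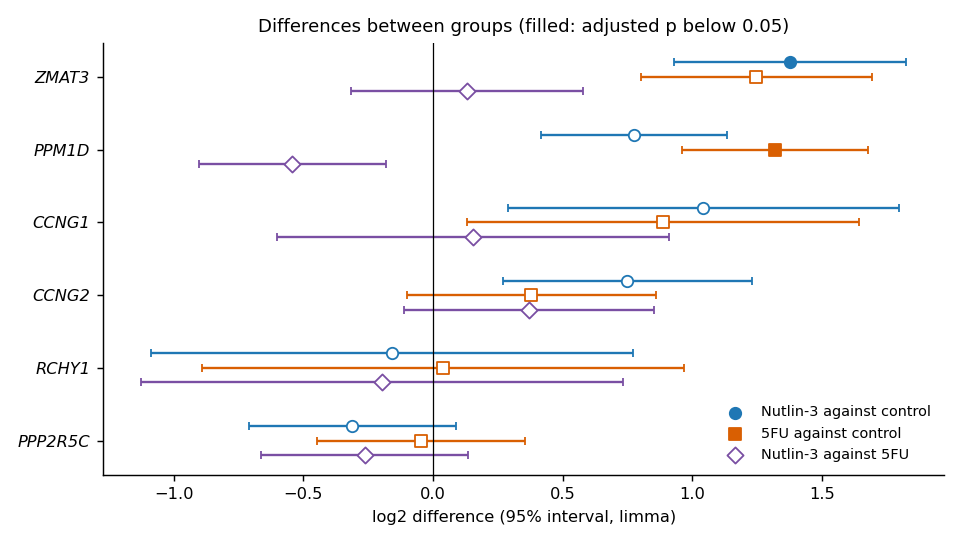
Log2 difference (x axis) of each gene (y axis) for Nutlin-3 against control (circles), 5FU against control (squares) and Nutlin-3 against 5FU (diamonds), with 95% intervals from limma; filled symbols passed at an adjusted p below 0.05. ZMAT3 after Nutlin-3 (1.38) and PPM1D after 5FU (1.32) are filled, and the RCHY1 intervals are the widest.

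CCNG1, which links MDM2 to PP2A, had values of 8.85 and 7.89 in control, 9.26 and 9.57 after Nutlin-3, and 9.04 and 9.48 after 5FU. Every drug array lay above both controls, but the 2 control arrays were 0.96 apart, a wider gap than 99% of genes showed between them. The differences were 1.04 after Nutlin-3 (95% interval 0.29 to 1.80, limma adjusted p = 0.28) and 0.89 after 5FU (0.13 to 1.64, limma adjusted p = 0.382). Without control replicate 1 the difference after Nutlin-3 was 1.52, and without control replicate 2 it was 0.56. The same fits gave 1.37 and 0.41 after 5FU, so the size depended on which control array was used. In RefSeq the gene overlaps NUDCD2, and RCHY1 likewise overlaps THAP6, so probe sets in the shared stretches could read either gene unless the array keeps strands apart, which the labels do not state.

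CCNG2, the FOXO-responsive cyclin, was nearer to control after 5FU than after Nutlin-3. Its values were 6.79 and 6.24 in control, 7.13 and 7.395 after Nutlin-3, and 6.87 and 6.92 after 5FU. The Nutlin-3 arrays lay above all others, and the lower 5FU array lay 0.08 above the higher control array. The difference was 0.75 after Nutlin-3 (95% interval 0.27 to 1.23, limma adjusted p = 0.211) and 0.38 after 5FU (-0.10 to 0.86, limma adjusted p = 0.613). Nutlin-3 minus 5FU was 0.37 (-0.11 to 0.85, limma adjusted p = 0.496), so the drugs were not told apart for this gene. Without control replicate 1 the differences were 1.02 and 0.65, and without control replicate 2 they were 0.48 and 0.11.

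RCHY1, the ubiquitin ligase, did not follow PPM1D or ZMAT3. Its values were 7.90 and 6.71 in control, 6.91 and 7.39 after Nutlin-3, and 7.06 and 7.63 after 5FU. The control arrays held both the highest and the lowest value, and their gap of 1.19 was wider than that of 99.8% of genes. The difference was -0.16 after Nutlin-3 (95% interval -1.09 to 0.77, limma adjusted p = 0.96) and 0.04 after 5FU (-0.89 to 0.97, limma adjusted p = 0.993). These intervals reach almost a unit either way, so changes of nearly 2-fold could not have been told from none. Without control replicate 1 the difference after Nutlin-3 turned to 0.44, and without control replicate 2 that after 5FU turned to -0.56.

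PPP2R5C, the B56 gamma subunit, had 8.09 and 7.90 in control, 7.57 and 7.80 after Nutlin-3, and 7.79 and 8.10 after 5FU. Both Nutlin-3 arrays lay below both controls, while the 5FU arrays spanned them. The difference was -0.31 after Nutlin-3 (95% interval -0.71 to 0.09, limma adjusted p = 0.655) and -0.05 after 5FU (-0.45 to 0.35, limma adjusted p = 0.978). Nutlin-3 minus 5FU was -0.26 (-0.66 to 0.14, limma adjusted p = 0.563). The intervals exclude a rise of the size seen for ZMAT3.

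In the direct comparison of the drugs 0 of 6 genes were called by limma, beside 0.633% of all genes (0.0617% higher, 0.572% lower after Nutlin-3), and 1 of 6 had an unadjusted p below 0.05 (PPM1D), beside 13.3%. CCNG2 was higher and PPM1D lower after Nutlin-3 than after 5FU without overlap, which 46% of all genes showed in one direction or the other.

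The replicates of these genes deviated in one pattern. In all 6 genes control replicate 1 lay above replicate 2 while replicate 1 lay below replicate 2 after both drugs, a pattern that 38.6% of all genes showed. The gap between control arrays ran from 0.05 for PPM1D to 1.19 for RCHY1. What set the arrays apart was not tested.

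Single probe sets show where along each gene these values came from. Probe set numbers followed the chromosome: over 256 to 439 genes on the chromosome and strand of each member, the rank correlation between a gene's median probe set number and its RefSeq start was 0.951 to 0.995. The used probe sets of a gene were therefore placed from its 5' end by number, with the same numbering assumed to hold within the gene. Of the 127 probe sets, 4 were numbered among those of another chromosome: 3 of PPP2R5C among chromosome 3, where RefSeq lists the pseudogene PPP2R5CP, and 1 of CCNG1 among chromosome 1. These may read a similar copy; without them the difference of PPP2R5C after Nutlin-3 was -0.31 as before, and they are left out of the placement.

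In PPM1D, CCNG1 and ZMAT3, the probe sets nearest the 5' end differed less from control than the others. The 5 first probe sets of PPM1D differed by 0.01 to 0.49 after Nutlin-3 and by 0.25 to 0.95 after 5FU. The other 11 differed by 0.70 to 1.46 and by 1.36 to 2.47, with no overlap with the first 5 for either drug. Both upper ends came from 1 probe set that lay below 4.73 on both control arrays (4.23 and 3.79) and passed the filter through its drug arrays. Without it the other 10 differed by 0.70 to 1.12 and by 1.36 to 2.14.

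ZMAT3 and CCNG1 showed the same split with 2 first probe sets each. In ZMAT3 these differed by 0.28 and 0.36 after Nutlin-3 and by -0.01 and -0.18 after 5FU, and the other 12 by 0.76 to 2.88 and 0.62 to 3.10. Here too 1 probe set, at 3.73 and 2.18 in control, gave both upper ends and passed only through its drug arrays, and the other 11 differed by 0.76 to 1.95 and 0.62 to 1.81. In CCNG1 they differed by 0.10 and 0.39 after Nutlin-3 and by -0.07 and -0.02 after 5FU, and the other 17 by 0.68 to 1.66 and 0.42 to 1.82. The split was less clear in CCNG2. Its first 4 probe sets lay between -0.09 and 0.27 after Nutlin-3 and between -0.47 and 0.11 after 5FU, and the other 11 between -0.01 and 1.66 and between -0.78 and 1.24. The ranges overlapped, and the last probe set at the 3' end differed by only -0.01 and -0.02. CCNG2 had 1 probe set below 4.73 on both control arrays as well. Without these 3 probe sets ZMAT3 differed by 1.26 after Nutlin-3 (limma adjusted p = 0.0234) and PPM1D by 1.24 after 5FU (limma adjusted p = 0.0303), and no call changed. The numbers of first probe sets were chosen after the values were seen.

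**Figure D3:**
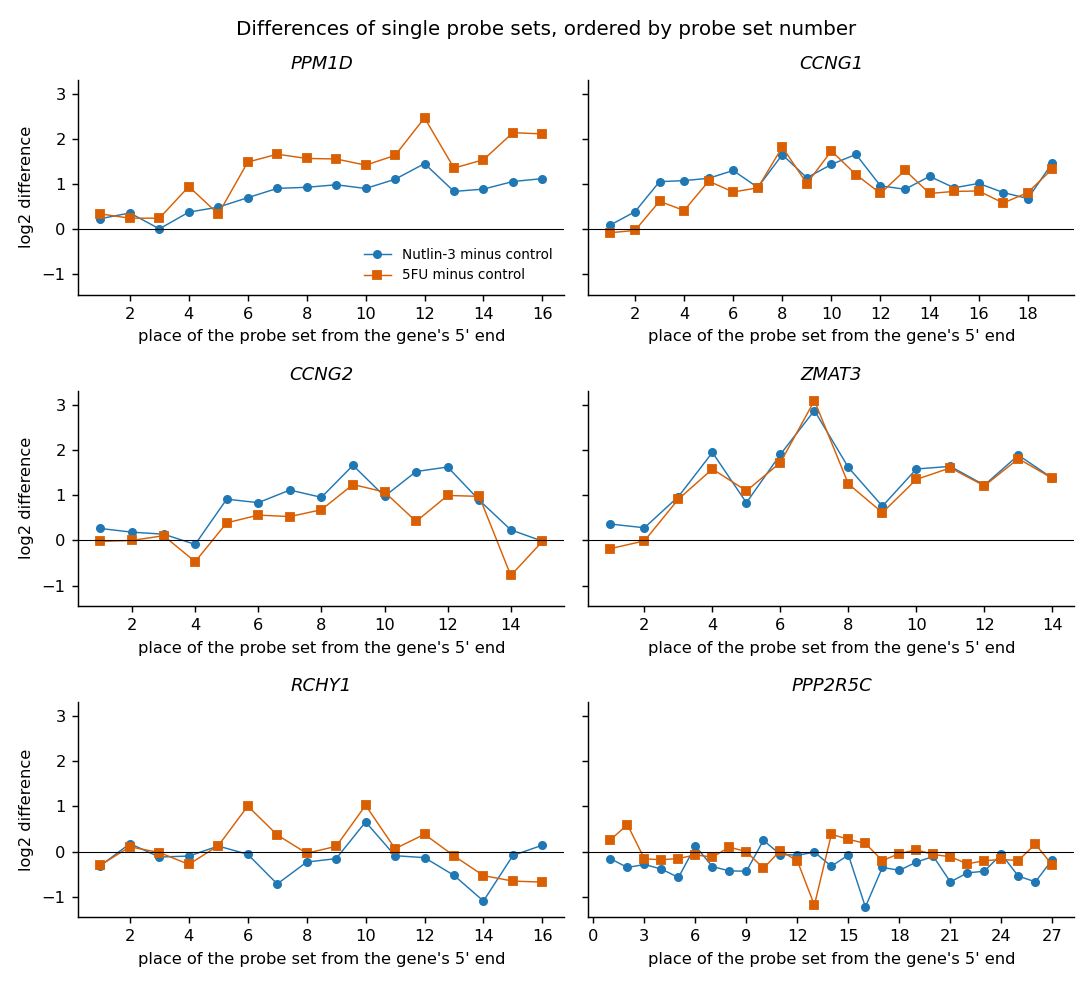
Log2 difference from control (y axis) of each used probe set, placed by number from the 5' end of its gene (x axis), for Nutlin-3 (circles) and 5FU (squares). The first 5 probe sets of PPM1D and the first 2 of CCNG1 and ZMAT3 lie closer to 0 than all the others of these genes, and RCHY1 and PPP2R5C scatter around or just below 0.

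The low 5' end was not particular to these genes. With a fixed choice of the 2 probe sets nearest the 5' end, in genes with at least 8 used probe sets, 40 of 45 other genes called higher after Nutlin-3 (88.9%) had a smaller difference there than the median of their remaining probe sets, and 36 of 40 (90%) after 5FU. The medians over those genes were 0.38 at the 5' end and 1.28 elsewhere after Nutlin-3, and 0.34 and 1.42 after 5FU. Among all 10148 such genes 38.7% and 55.5% had a lower value there, counted with its sign. In a gene that fell, a smaller change at the 5' end gives a higher signed value. These 2 shares therefore do not measure how often the 5' end changed less. The cause was not tested.

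In PPM1D, ZMAT3, CCNG1 and CCNG2 the direction was otherwise shared by most probe sets. All 16 used probe sets of PPM1D were above control after either drug, and 13 and 15 of them did so without overlap of the arrays after Nutlin-3 and 5FU, beside 17.2% and 17.6% of all single probe sets. ZMAT3 had 13 and 12 of 14 such probe sets, CCNG1 15 and 13 of 19, and CCNG2 9 and 6 of 15. RCHY1 had 1 and 3 of 16, and PPP2R5C 1 and 3 of 30. These counts include the 3 probe sets that were below 4.73 on both control arrays. Those of PPP2R5C also include its 3 probe sets numbered among chromosome 3. In PPP2R5C 28 of 30 probe sets had a value below control after Nutlin-3, with a median of -0.33. Without overlap of the arrays 6 of the 30 lay lower, beside 15% of all single probe sets. After 5FU 12 of the 30 lay above control, and 4 lay lower without overlap, beside 17.6%. In RCHY1 4 of 16 lay above control after Nutlin-3 and 8 after 5FU, and 2 and 1 lay lower without overlap. No single probe set of the 705699 tested passed limma for either drug against control, with 43352 (6.14%) and 44222 (6.27%) at an unadjusted p below 0.05. At that unadjusted level stood 10 and 12 of the 16 probe sets of PPM1D and 12 and 11 of the 14 of ZMAT3. CCNG1 had 11 and 11 of 19 there, and CCNG2 6 and 2 of 15. For RCHY1 these were 1 and 0 of 16, and for PPP2R5C 0 and 1 of 30.

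The spread between the controls of RCHY1 also lay along the gene. Its second probe set from the 5' end, the brightest, read 11.72 and 11.67 in control replicates 1 and 2, while the fifth read 8.02 and 5.38. The 3 first probe sets had control gaps of 0.05 to 0.84, and the other 13 gaps of 0.40 to 2.63. In CCNG1 the gap had a median of -0.11 in the 2 first probe sets and 1.07 in the other 17. The control arrays thus differed mainly outside the 5' end in both genes. The same held for CCNG2, with medians of -0.04 in its first probe sets and 0.77 in the others, and for ZMAT3 (-0.03 and 0.66). In PPM1D the medians were -0.27 and 0.10, and in PPP2R5C -0.09 and 0.16. How many of all genes show such a split was not tested.

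Of 13 ubiquitin ligases and partners that act on p53, RCHY1 among them, MDM2 was the 1 called after either drug, and the medians were -0.12 after Nutlin-3 and -0.02 after 5FU. MDM2 read 8.64 and 8.57 in control, 10.26 and 10.67 after Nutlin-3 and 10.04 and 10.31 after 5FU, and its differences of 1.86 (limma adjusted p = 0.0099) and 1.57 (limma adjusted p = 0.0283) were larger than those of the 6 genes described here. Of 17 PP2A subunits 0 were called by limma after either drug, 3 had values above control after Nutlin-3 and 10 after 5FU, and the medians were -0.12 and 0.07. The 4 other B56 subunits lay between -0.56 and 0.16 after Nutlin-3.

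Among 17 measured phosphatases of the PPM family PPM1D was the 1 called, after 5FU. Values lay above control for 9 of the 17 after Nutlin-3 and for 10 after 5FU, PPM1D included. The medians of the other 16 were 0.02 after Nutlin-3 and 0.10 after 5FU. Besides the G cyclins, the cyclin I genes CCNI and CCNI2 had a median of 0.08 and 0.03, and the 4 other ZMAT genes 0.08 and 0.09, with 0 calls by limma in either set. Of 10 genes whose proteins PPM1D dephosphorylates, MDM2 rose after both drugs and UNG, the uracil glycosylase of base excision repair, fell after Nutlin-3. UNG read 8.53 and 8.59 in control, 7.16 and 7.44 after Nutlin-3 and 8.39 and 8.63 after 5FU. Its difference after Nutlin-3 was -1.26 (limma adjusted p = 0.0193), and the direct difference between the drugs passed (-1.21, limma adjusted p = 0.0342). That list had medians of -0.15 and -0.07. Of 14 FOXO targets, CCNG2 included, 0 were called by limma after either drug, with medians of 0.005 and 0.08.

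For scale, 25 established p53-induced genes had 13 called higher and a median of 1.00 after Nutlin-3, and 12 and 1.09 after 5FU, led by TP53I3 (2.80 and 2.27). CDKN1A, which encodes p21, differed by 2.10 and 1.78 (limma adjusted p = 0.00308 and 0.00751). The differences of ZMAT3 lay above that list's median after both drugs, that of PPM1D after 5FU only, and that of CCNG1 after Nutlin-3 only, as a description without a test.

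**Figure D4:**
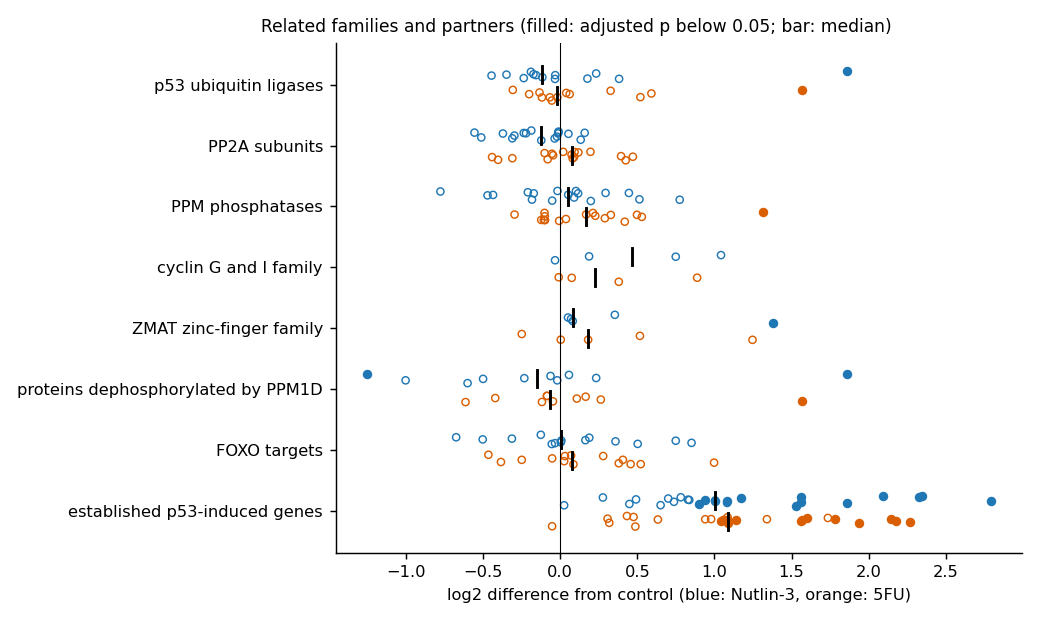
Log2 difference from control (x axis) of each gene in the 8 lists of families and partners (y axis), for Nutlin-3 (blue) and 5FU (orange); filled points passed at an adjusted p below 0.05 and black bars are medians. Filled points are few outside the established p53-induced genes, namely MDM2, ZMAT3 and UNG after Nutlin-3 and MDM2 and PPM1D after 5FU.

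By distance between their 6 centred array values, the genes most like PPM1D among 15985 others were ZNF79 (distance 0.09 log2 units), ERAP2 (0.15) and PRDM1 (0.17). ZNF79 read 0.79 above control after Nutlin-3 and 1.39 after 5FU. Nearest to ZMAT3 were TAP1 (0.20), SLC44A5 (0.23) and CYFIP2 (0.27). CCNG1 was nearest to ASCC3, MYO6 and ELAPOR2, at 0.26 to 0.32, and CCNG2 to RFX5, SPRY1 and VPS13D, all at 0.19. RCHY1 had ZNHIT6 (0.09), SSB (0.15) and TRMT10C (0.17) nearest, and PPP2R5C had KDM2B (0.05), RUNDC1 and RBM8A (0.08 each). The 6 arrays behind each distance are few and share the replicate pattern given above.

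All 8 colonic epithelial markers lay above 4.73, as did 5 of 8 fibroblast and 4 of 6 blood markers, so this filter does not separate the cell types. The mean epithelial level ran from 8.63 to 8.78 in control, 8.78 to 8.86 after Nutlin-3 and 8.88 to 8.96 after 5FU. Pairs of arrays correlated at 0.92 to 0.981 over genes, which are not independent replicates. An exact permutation test on 2 and 2 arrays has 0.333 as its smallest two-sided p, and the calls above therefore use the spread pooled over genes by limma.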

How the data were processed

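RNA of 6 HCT116 samples was measured on exon arrays. The authors deposited log2 values for each probe set, made with RMA per the submitters' processing notes; no version, setting or genome build was found in the labels. Precision is limited by having 2 arrays a group. Array medians lay between 4.73 and 4.78.

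Names came from the platform annotation of the probe sets (357604 with 1 symbol, 15322 with several, which named no gene), with 2966 of 19560 symbols updated through RefSeq. A gene's value was the mean of its probe sets above the median of all probe-set means, at least 2 of them. The 3 groups were fitted together in limma 3.58.1 (R 4.3.3; lmFit, eBayes, no block, 3 residual degrees of freedom), with Benjamini-Hochberg adjustment over 17841 genes; single probe sets were fitted alike. The method was tested on simulated data. Genes named are the 6 chosen ones, MDM2, CDKN1A, up to 3 called genes of each list per comparison and the 3 nearest genes by distance, with PPP2R5CP and the list members CCNI and CCNI2 named after their values were seen. The genes and lists were chosen with earlier results of these data known. Alternatives varied scaling, filters, summary, variance model, block and arrays. No columns were left out.

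Replicate deviations correlated at -0.565 between control and Nutlin-3, -0.525 between control and 5FU and 0.634 between the drugs. Because both values with control were negative, shared numbers were not taken to pair the arrays across the groups. The value between the drugs alone was positive, and their direct comparison was likewise fitted without a block.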

Additional observations from a re-analysis of the deposited data

How the results depend on the processing

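Of 324 alternative values of the 6 genes, 291 kept direction and side of the threshold. Most of the 324 belong to results that had no call to lose, and both calls were lost in the fits given earlier. Counts of called genes, given in the order Nutlin-3 against control, 5FU against control and Nutlin-3 against 5FU, were 217, 80 and 113. They were 127, 14 and 37 with arrays centred on their medians, 380, 151 and 234 with upper-quartile probe sets alone, and 2, 1 and 0 with the replicate number as a block, which called 0 of the 6 genes in any comparison (ZMAT3 after Nutlin-3 adjusted p = 0.121, PPM1D after 5FU 0.142). Without the filter on dim probe sets the drugs differed in 69 genes, and with the median of probe sets 5FU against control gave 39 and the drugs 69. Leaving out 1 array gave 5 to 149, 1 to 63 and 3 to 104 genes, and 0 to 1, 0 to 1 and 0 to 0 of the 6. Of the 6, centring called 0 after either drug, the median of probe sets 0 after Nutlin-3, and quantile normalization or upper-quartile probe sets 2 after 5FU, ZMAT3 joining PPM1D (adjusted p 0.0451 and 0.0256). Crossing the replicate numbers, an alternative added after seeing the data, gave 1788, 1882 and 2821 genes and 4, 3 and 1 of the 6. That pairing was set from the replicate deviations of these same arrays, so its counts cannot be read as support for any call.

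Direction turned in 12 values, all of results without a call. Leaving out 1 array gave RCHY1 -0.75 to 0.44 after Nutlin-3, -0.56 to 0.63 after 5FU and -0.48 to 0.088 between the drugs, PPP2R5C -0.20 to 0.11 after 5FU, and CCNG1 -0.068 to 0.38 between the drugs. RCHY1 after 5FU also turned to -0.29 with the median of probe sets and to -0.0057 with upper-quartile probe sets, and ZMAT3 between the drugs to -0.072 with the median of probe sets. The causes were not tested. Fits that leave 1 array in a group assume it varies like the other groups. Low signal limits single dim probe sets most: 17 of the 127 lay below the filter.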
